A study of Mus musculus with 10 samples.

Results

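Hedgehog receptors and Gli factors were followed across the 3 groups of a mouse cell reprogramming study. The 9 genes were Ptch1, Smo, Gas1, Cdon, Boc, Hhip, Gli1, Gli2 and Gli3, taken by their symbols in the platform annotation from the 18193 genes measured. All 9 were present, with 24 of the 45101 probe sets on the array. Expression was read on 10 Affymetrix arrays, each hybridised with RNA of 1 sample.

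Per the labels, 3 arrays held neural stem cells (NSC) obtained by differentiating induced pluripotent stem (iPS) cells, called labelled iPS-derived NSC. Another 3 arrays held the iPS cells, which were made from adult brain NSC with a pMX retroviral vector carrying mouse Oct4 cDNA alone. Their colonies were picked by hand for Oct4-GFP fluorescence and grown on irradiated mouse embryonic fibroblasts with leukaemia inhibitory factor (LIF). They are called labelled iPS. The last 4 arrays held NSC derived from adult mouse brain. All 3 groups go back to OG2 Rosa26 neo/lacZ mice, which carry an Oct4-eGFP transgene, crossed with ICR females. The labels do not say whether the arrays of a group came from separate cultures, clones or animals, so the spread between them may be technical.

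The markers of these cells go against the names of 2 groups. Of 10 pluripotency markers, all 10 were higher in labelled iPS-derived NSC than in labelled iPS, where Zfp42, a gene of undifferentiated embryonic stem cells, averaged 12.44 and 3.54 on the log2 scale. Of 10 neural stem cell markers measured, 7 were lower in labelled iPS-derived NSC, where Fabp7, a radial glia gene, averaged 4.43 against 14.17 in labelled iPS. Both groups keep their deposited names here, and each direction that involves one of them follows a name these markers contradict. Exchanging the 2 names would turn the sign of every difference between these groups and leave its size. It would also exchange the 2 comparisons with brain NSC, each with its values. Brain NSC replicate 4 also stood apart: 190 genes lay at least 1 log2 unit from the mean of the other 3 brain NSC arrays, against 2 to 4 genes for each of those 3 arrays.

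Hedgehog proteins are secreted signals that pattern the embryo and keep neural stem cells of the adult brain active. They bind Ptch1, a membrane protein that holds the transducer Smo inactive, with help from the co-receptors Gas1, Cdon and Boc. Once released at the primary cilium, Smo shifts the zinc finger factors Gli2 and Gli3 from repressor to activator forms, and Gli1, Ptch1 and Hhip are transcribed in response, the last 2 of these as feedback inhibitors.

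RefSeq promoter windows are shown for Gas1, which had the largest difference of the 9 genes under the labels, and for Gli2, which was called in the opposite direction. Each runs 5′ to 3′ from 250 bases before the start site to 50 bases after it, and capitals mark the transcribed bases. In build GRCm38.p6 they lie at chr13:60177486-60177785 and chr1:119053570-119053869, both on the minus strand.
Gas1: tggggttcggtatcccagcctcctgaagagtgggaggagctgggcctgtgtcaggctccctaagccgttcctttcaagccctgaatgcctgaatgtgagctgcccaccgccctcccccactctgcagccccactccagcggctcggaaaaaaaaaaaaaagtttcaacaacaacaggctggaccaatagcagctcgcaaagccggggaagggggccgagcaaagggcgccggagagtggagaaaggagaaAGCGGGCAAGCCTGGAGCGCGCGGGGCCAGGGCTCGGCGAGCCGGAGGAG
Gli2: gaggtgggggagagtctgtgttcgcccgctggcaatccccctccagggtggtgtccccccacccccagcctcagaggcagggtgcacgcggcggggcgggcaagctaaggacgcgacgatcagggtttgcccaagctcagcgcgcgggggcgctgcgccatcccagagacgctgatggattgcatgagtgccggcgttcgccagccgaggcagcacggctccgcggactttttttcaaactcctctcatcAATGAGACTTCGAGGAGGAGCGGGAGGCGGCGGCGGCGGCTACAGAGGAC
The Gas1 window held 17 CG dinucleotides and the Gli2 window 28, against a median of 7 over 32851 windows of the same length. The quartiles over those windows were 3 and 20, so the Gas1 count lay between them and the Gli2 count above. Windows were at hand for 7 of the 9 genes. They held from 3 CG dinucleotides in Cdon to 47 in Ptch1, though the start sites used lie inside the outer end of the gene, by 30548 bases for Cdon, 7725 for Ptch1 and 786 for Gli2. The Gli consensus GACCACCCA, searched on both strands, was in 0 of the 7 windows and in 0.253% of all windows, which says only that these letters are not in these stretches.

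In the arrays labelled iPS-derived NSC, 4 of the 6 genes that receive or capture the Hedgehog signal were called lower than in both other groups. Gli2 was called higher than in both. Gas1, Smo, Cdon, Ptch1 and Gli3 were called lower than in labelled iPS, and Gli2 was called higher. A gene was called when limma, fitted over all genes, gave an adjusted p under 0.05 (Benjamini-Hochberg) and a difference of at least 2-fold. The background was high in this comparison: 25.3% of all genes were called, 14.4% lower and 10.8% higher. Of the 9 genes, 5 were lower and 1 was higher, with a median difference of -1.03 log2 units against 0.12 over all genes. Among genes at or above the median level, which include 6 of the 9, 24.6% were lower and 11.3% higher. Values are deposited log2 levels (RMA), differences are in log2 units with limma's standard error (SE), and the number of arrays limits the precision. Gene positions below are RefSeq's in GRCm38.p6, and each gene's values are from its brightest probe set unless another is named. Overlap of arrays is described gene by gene, without its share over all genes, and is not read as a trait of these genes. An unadjusted p under 0.05 (limma) was common, in 11774 genes against labelled iPS and 12021 against brain NSC.

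**Figure D1:**
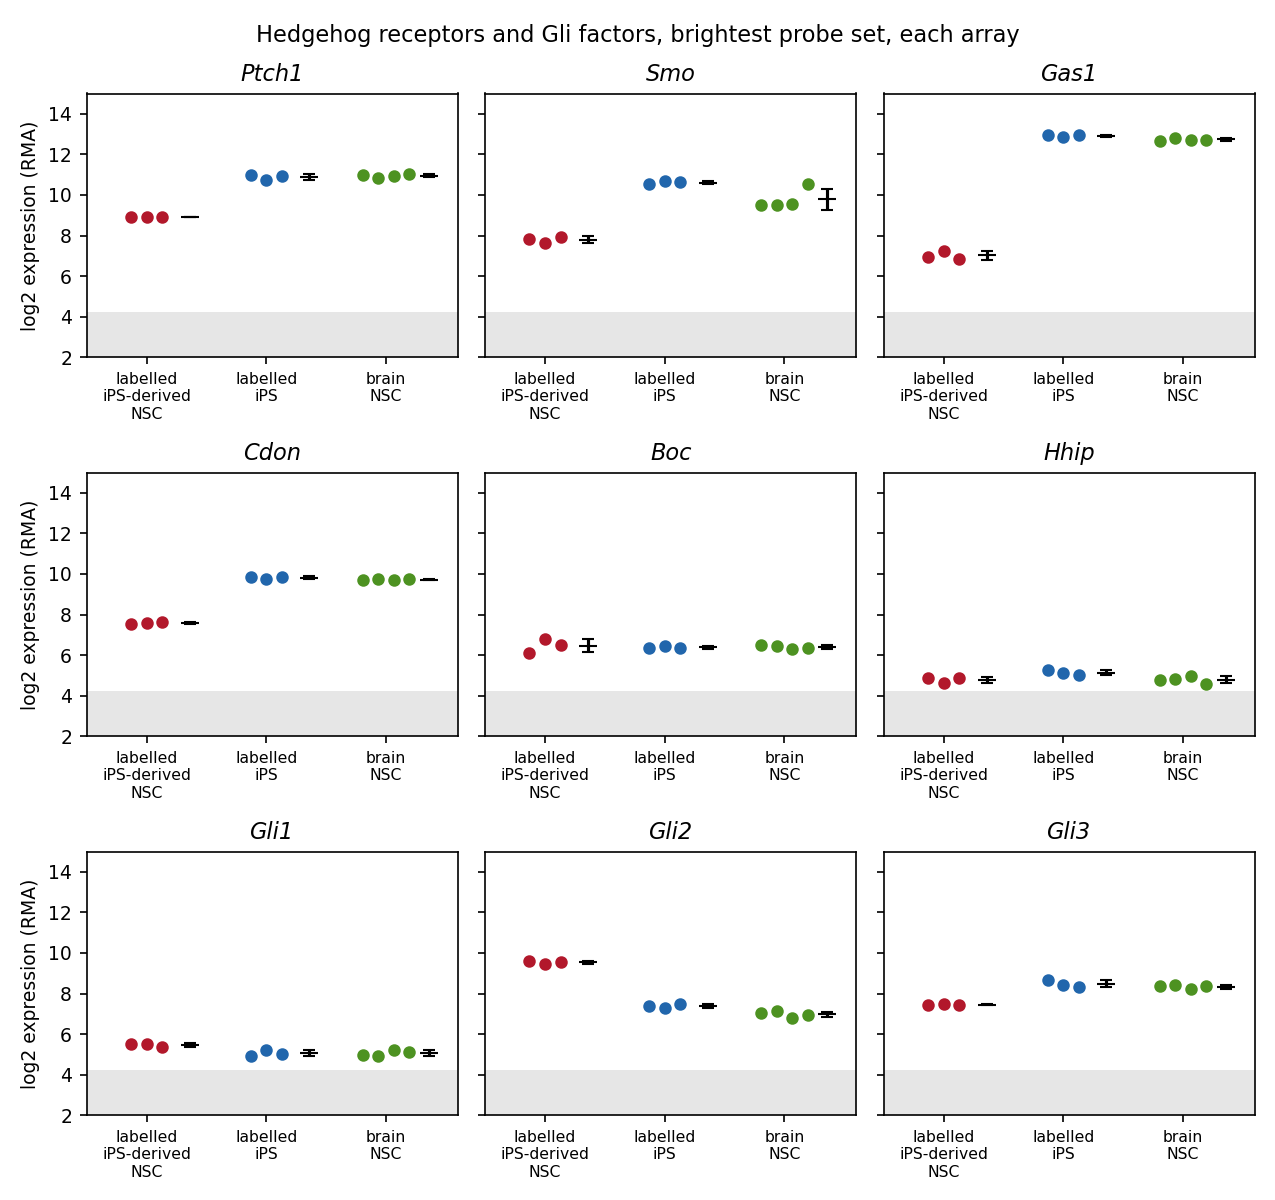
Log2 expression (y axis, RMA) of the brightest probe set of each gene on each array (dots), with the mean and SD of each group (bars), in 3 arrays labelled iPS-derived NSC, 3 labelled iPS and 4 of brain NSC; grey marks levels under the lower quartile of the probe sets (4.22). Ptch1, Smo, Gas1, Cdon and Gli3 lie lower, and Gli2 and Gli1 higher, in every array labelled iPS-derived NSC than in every other array. The share of all genes that separate in this way is not given.

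Ptch1, the receptor that binds the ligand (chr13:63508328-63573460), read 8.93, 8.91 and 8.91 in labelled iPS-derived NSC. It read 10.97, 10.72 and 10.96 in labelled iPS, and 10.97, 10.85, 10.93 and 11.02 in brain NSC. The first group lay below both others without overlap, while the last 2 groups overlapped. Ptch1 fell by 1.97 ± 0.10 (SE) in labelled iPS-derived NSC against labelled iPS (adjusted p = 5.04e-10, limma), a 3.90-fold difference over 3 against 3 arrays. Against brain NSC it fell by 2.02 ± 0.09 (adjusted p = 1.57e-10, limma; 3 against 4 arrays). Even in the low group it stayed above 75.2% of all genes. Its other 2 probe sets were dim, at means of 4.96 to 6.70, and neither was called in either comparison (-0.72 and -0.05 against labelled iPS), and with the mean of the 3 probe sets the call against labelled iPS was lost (-0.91).

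Smo, the membrane protein that passes the signal on (chr6:29735497-29761366), read 7.83, 7.62 and 7.95 in labelled iPS-derived NSC, and 10.53, 10.68 and 10.62 in labelled iPS. In brain NSC it read 9.50, 9.51, 9.56 and 10.56. The first group was again the lowest without overlap, and the fourth brain NSC array lay with labelled iPS rather than with the other 3. Smo fell by 2.81 ± 0.23 against labelled iPS (adjusted p = 1.02e-07, limma) and by 1.98 ± 0.21 against brain NSC (adjusted p = 1.69e-06, limma). Without brain NSC replicate 4 the second value was -1.72, still called. A second probe set of Smo gave -2.67 and -1.97, and a dim probe set lay under the lower quartile on all 10 arrays.

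Gas1, a surface co-receptor anchored by a lipid (chr13:60174405-60177535), had the largest differences of the 9 genes. It read 6.94, 7.26 and 6.87 in labelled iPS-derived NSC, 12.96, 12.87 and 12.93 in labelled iPS, and 12.67, 12.81, 12.73 and 12.73 in brain NSC. It stood above 54.6% of all genes in labelled iPS-derived NSC, 99.0% in labelled iPS and 98.9% in brain NSC. Gas1 fell by 5.90 ± 0.11 against labelled iPS (59.8-fold, adjusted p = 3.31e-14, limma) and by 5.71 ± 0.10 against brain NSC (52.5-fold, adjusted p = 1.99e-14). A difference of larger size was seen in 0.561% of all genes in the first comparison and in 0.610% in the second. Its second probe set gave -4.99 and -4.45. The last gave -0.08 and -0.17, was not called and read 6.31, 6.39 and 6.48 in the means of the 3 groups.

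Cdon, an immunoglobulin superfamily co-receptor (chr9:35421528-35507652), read 7.53, 7.58 and 7.66 in labelled iPS-derived NSC. It read 9.84, 9.74 and 9.86 in labelled iPS, and 9.69, 9.73, 9.73 and 9.74 in brain NSC. The first group was lowest without overlap. Cdon fell by 2.22 ± 0.09 against labelled iPS (adjusted p = 4.04e-11, limma) and by 2.13 ± 0.08 against brain NSC (adjusted p = 2.64e-11). Its dimmer probe set, at 5.92, 6.14 and 6.38 in the group means, was not called in either comparison (-0.21 and -0.46).

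Boc, a relative of Cdon with the same co-receptor role (chr16:44485045-44558870), depended on the probe set. Its brightest one read 6.13, 6.81 and 6.48 in labelled iPS-derived NSC, 6.37, 6.44 and 6.33 in labelled iPS, and 6.48, 6.47, 6.29 and 6.37 in brain NSC. These groups overlapped, and the differences were 0.10 ± 0.14 against labelled iPS (adjusted p = 0.574, limma) and 0.07 ± 0.13 against brain NSC (adjusted p = 0.645). A second probe set, at 6.32 in labelled iPS, read 5.06, 4.56 and 5.05 in labelled iPS-derived NSC and differed from labelled iPS by -1.43 ± 0.18 (adjusted p = 9.41e-06, limma, with this probe set in place of the first). Against brain NSC that probe set gave -0.94, under 2-fold. Its remaining probe set lay under the lower quartile on all 10 arrays.

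**Figure D2:**
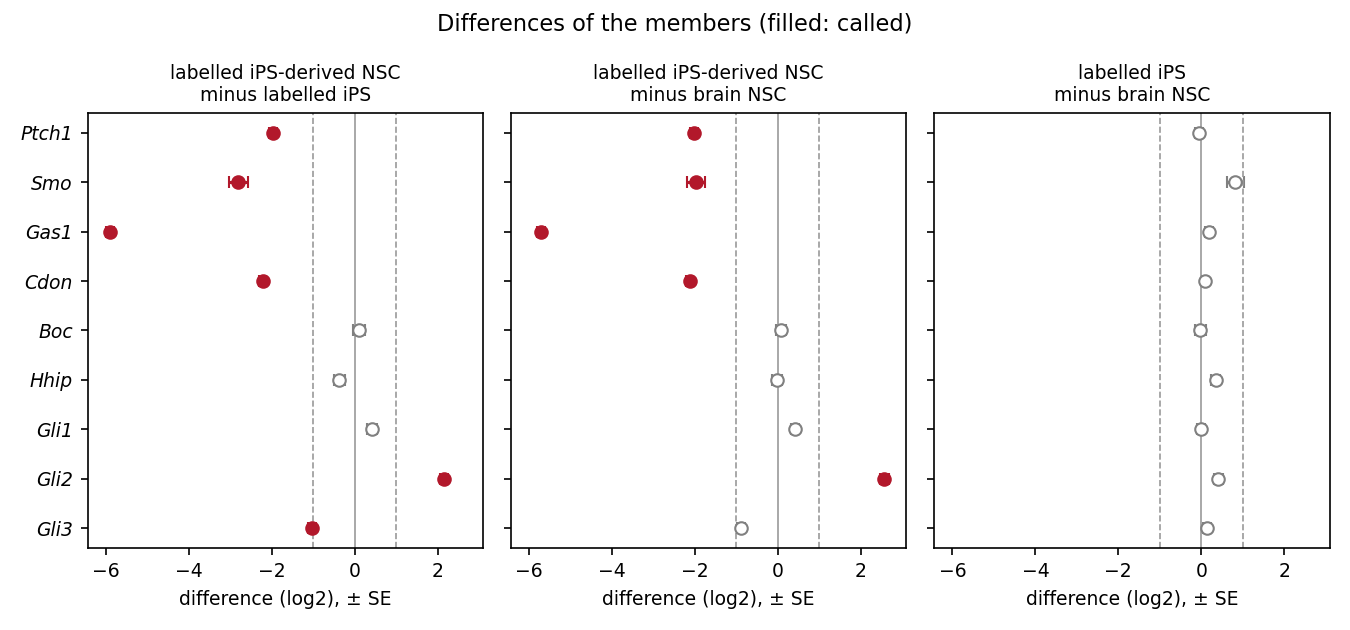
Differences in log2 units (x axis) with SE of the 9 genes, brightest probe sets, for labelled iPS-derived NSC minus labelled iPS, labelled iPS-derived NSC minus brain NSC, and labelled iPS minus brain NSC; filled points were called and dashed lines mark 2-fold. Gas1 reaches -5.90 and -5.71, Gli2 stands at 2.15 and 2.57, and 0 genes are called in the third panel.

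Hhip, a membrane protein that captures the ligand (chr8:79965850-80058060), was dim in every group. It read 4.87, 4.62 and 4.85 in labelled iPS-derived NSC, 5.29, 5.13 and 5.01 in labelled iPS, and 4.78, 4.84, 4.99 and 4.57 in brain NSC. The difference was -0.37 ± 0.12 against labelled iPS (adjusted p = 0.0189, limma, under 2-fold) and -0.02 ± 0.11 against brain NSC (adjusted p = 0.897). Its other 3 probe sets averaged between 3.43 and 4.66 and were not called either. RMA compresses differences between dim genes, and the values hold no detection calls.

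The 3 Gli factors, which carry the signal to the genome, did not move together. Gli2, the main activator (chr1:118834061-119054405), read 9.59, 9.46 and 9.56 in labelled iPS-derived NSC, 7.40, 7.27 and 7.49 in labelled iPS, and 7.03, 7.12, 6.78 and 6.96 in brain NSC. The first group was highest and no groups overlapped. Gli2 rose by 2.15 ± 0.11 against labelled iPS (4.44-fold, adjusted p = 5.41e-10, limma) and by 2.57 ± 0.10 against brain NSC (5.92-fold, adjusted p = 3.62e-11). It stood above 81.8% of all genes in labelled iPS-derived NSC, 55.7% in labelled iPS and 52.0% in brain NSC. Its second probe set also rose, by 1.37 and 1.56, but both probe sets were designed on the same sequence record and are not independent.

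Gli3, which acts mostly as a repressor (chr13:15463723-15730026), read 7.46, 7.48 and 7.43 in labelled iPS-derived NSC, 8.68, 8.44 and 8.34 in labelled iPS, and 8.36, 8.43, 8.20 and 8.40 in brain NSC. The first group lay below the others, which overlapped. Gli3 fell by 1.03 ± 0.11 against labelled iPS (adjusted p = 1.26e-06, limma), at the edge of the 2-fold rule, and the call was lost after a second quantile normalization (-0.78) or without labelled iPS replicate 1 (-0.93). Against brain NSC the difference was -0.89 ± 0.10 (adjusted p = 2.60e-06), under 2-fold. A second probe set was called in both comparisons (-1.73 and -1.19), and the dim remaining one in neither.

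Gli1, itself a target that usually follows pathway activity (chr10:127329882-127341579), was dim. It read 5.53, 5.53 and 5.37 in labelled iPS-derived NSC, 4.93, 5.23 and 5.02 in labelled iPS, and 4.97, 4.94, 5.22 and 5.12 in brain NSC on its 1 probe set. The difference was 0.42 ± 0.11 against labelled iPS (adjusted p = 0.00507, limma) and 0.41 ± 0.10 against brain NSC (adjusted p = 0.00348). The first group did not overlap the others, but both differences were under 2-fold and Gli1 was not called.

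**Figure D3:**
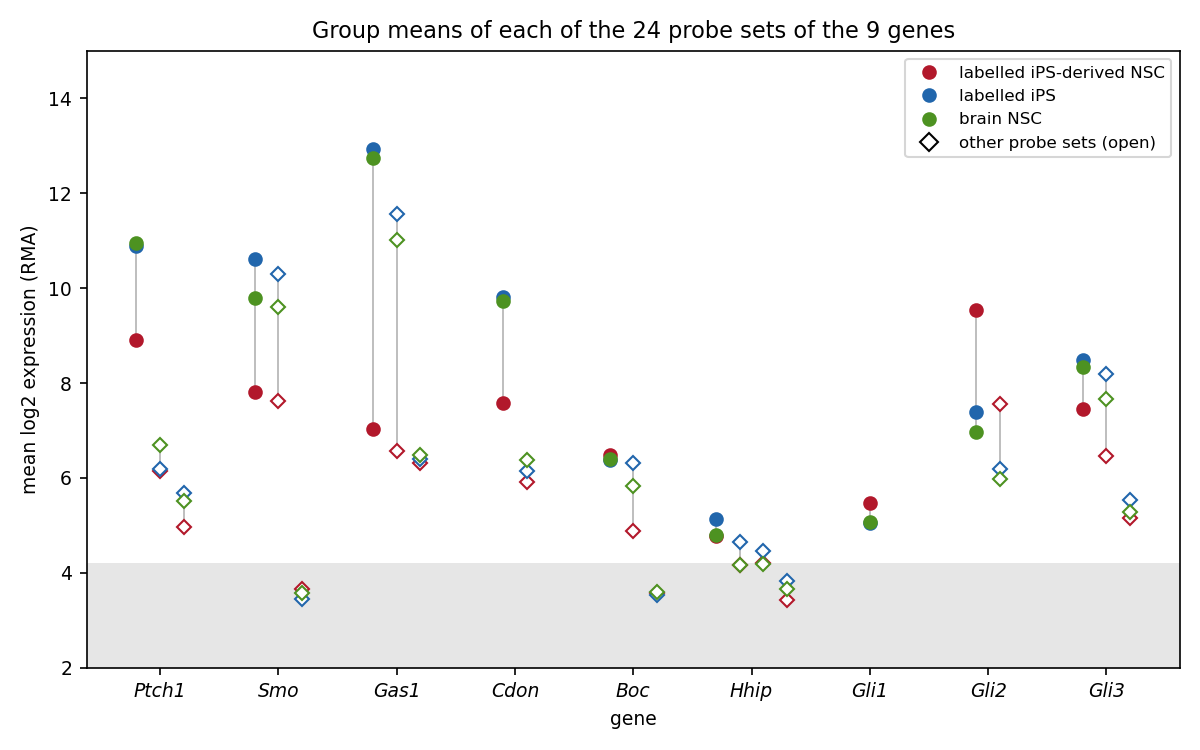
Mean log2 expression (y axis, RMA) of every probe set of each gene in the 3 groups; filled circles are the brightest probe set, open diamonds the others, and grey marks levels under the lower quartile (4.22). The second probe sets of Smo, Gas1, Gli2 and Gli3 keep the order of the labelled iPS-derived NSC mean against the others and were called. The dimmer probe sets of Ptch1 and Cdon were not called, and the smallest of their differences from labelled iPS was -0.05 ± 0.18 (Ptch1). For Boc a dimmer probe set spreads (4.89, 6.32 and 5.83) where the brightest does not.

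Against brain NSC, labelled iPS-derived NSC had 4 of the 9 genes called lower (Gas1, Smo, Cdon and Ptch1) and 1 called higher (Gli2). In that comparison 25.4% of all genes were called, 14.0% lower and 11.3% higher. Among genes at or above the median level, 23.4% were lower and 12.5% higher. The median difference was -0.89 log2 units over the 9 genes and 0.13 over all genes. This comparison and the one with labelled iPS share the 3 arrays labelled iPS-derived NSC, so the likeness of their values is not independent.

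Some markers of other cell types also differed in this group, and irradiated fibroblasts are the feeder layer named for the iPS cultures. Among 11 markers of feeder fibroblasts, labelled iPS-derived NSC had 4 called higher and 1 called lower than labelled iPS, and 5 higher and 2 lower than brain NSC, against 25.3% and 25.4% of all genes called in either direction. Col1a2 and Col3a1, fibrillar collagens, were higher (2.83 and 2.95 against labelled iPS), while Prrx1, a mesenchymal factor, was lower (-1.95). The log2 of their summed linear levels ranged over 9.30 to 10.69 in labelled iPS-derived NSC, 8.84 to 8.91 in labelled iPS and 8.94 to 9.17 in brain NSC. The mean of the markers by array was 6.32, 5.88 and 5.32 in labelled iPS-derived NSC, 5.06 to 5.15 in labelled iPS and 5.09 to 5.19 in brain NSC. Lum was under the lower quartile of the probe sets in all 3 groups, and Col3a1 in labelled iPS and brain NSC. In the same order of arrays labelled iPS-derived NSC, Gas1 read 6.94, 7.26 and 6.87, Smo 7.83, 7.62 and 7.95, and Gli2 9.59, 9.46 and 9.56. With 3 arrays these values cannot be set against the markers. Without any 1 array Gas1 ran from -6.02 to -5.82 and Gli2 from 2.10 to 2.20 against labelled iPS. Of 5 neuron markers 2 were called higher, in both comparisons: Tubb3, a neuronal tubulin, by 5.34 against labelled iPS and 5.14 against brain NSC, and Stmn2 by 4.76 and 4.91. The neuron markers Dcx, Rbfox3 and Snap25 were not called. Of 5 endothelial markers, only Pecam1 was called higher (3.68 and 3.50), while Cdh5, Kdr, Tie1 and Tek were not called. Of 4 oligodendrocyte markers and 5 microglia markers, 0 were called in either comparison. Of 5 mural cell markers, Acta2 was called higher (1.68 and 1.60), and Cspg4 was called lower against labelled iPS (-1.30). The part of these markers in the results was not tested. In bulk RNA a change in the share of cells and a change per cell cannot be told apart.

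Between labelled iPS and brain NSC the receptors and Gli factors all differed by less than 2-fold. Limma called 0 of the 9, against 1.84% of all genes (0.951% higher and 0.890% lower). At an unadjusted p under 0.05 (limma) there were 3 of the 9, and 5919 of all 18193 genes, so such values were common. The same number of the 9 had an adjusted p under 0.05 at differences under 2-fold. Smo was 0.82 ± 0.21 higher (adjusted p = 0.0149, limma) but its groups overlapped through brain NSC replicate 4. Without that array the difference was 1.08 (adjusted p = 4.82e-06) and Smo was called. Gli2 was 0.41 ± 0.10 higher (adjusted p = 0.0103) and Hhip 0.35 ± 0.11 higher (adjusted p = 0.0474), both without overlap. Gas1 and Cdon did not overlap between these groups either, at smaller differences with adjusted p above 0.05. Hhip lies on chromosome 8, where the median difference of the 502 genes with a mean of at least 7 was 0.44, against 0.04 over all 8642 such genes. The part of that shift in the Hhip value was not tested.

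The other 6 genes gave differences of -0.06 ± 0.09 (Ptch1), 0.19 ± 0.10 (Gas1), 0.09 ± 0.08 (Cdon), -0.02 ± 0.13 (Boc), -0.01 ± 0.10 (Gli1) and 0.14 ± 0.10 (Gli3), with adjusted p values of 0.227 to 0.978 (limma). The median over the 9 genes was 0.14, and 0.01 over all genes. In labelled iPS and brain NSC, Gas1, Ptch1 and Smo stood above 83.6% to 99.0% of all genes, while Gli1 and Hhip stood above no more than 31.9%.

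**Figure D4:**
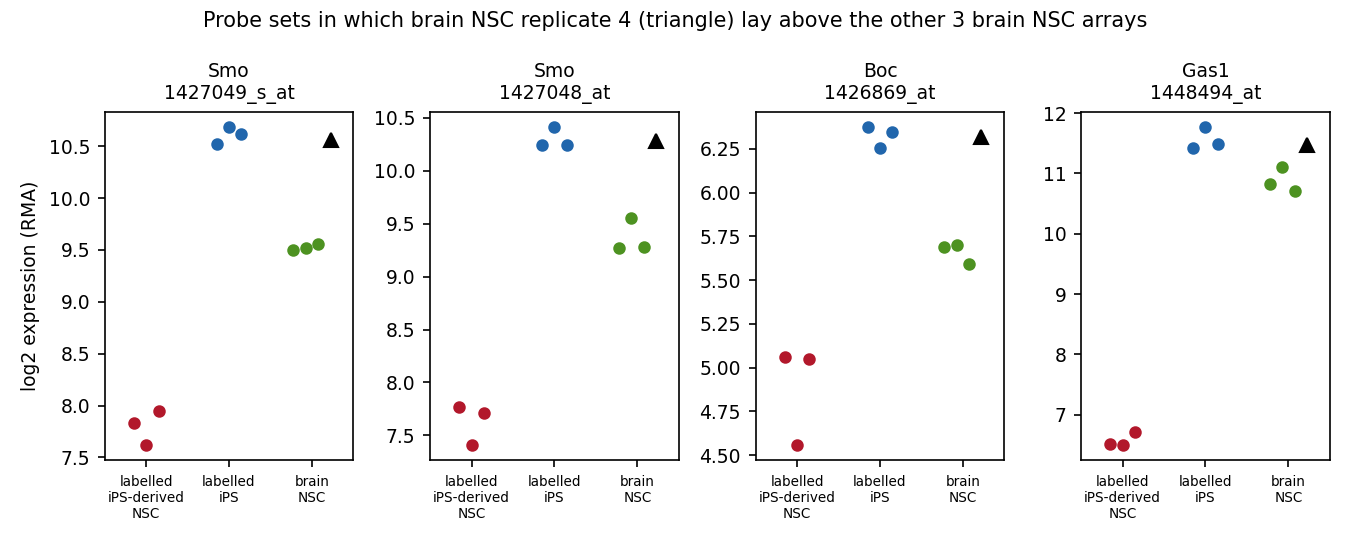
Log2 expression (y axis, RMA, a separate scale in each panel) on each array for 4 probe sets chosen after their values were seen, with brain NSC replicate 4 as a triangle. In the brightest Smo probe set the triangle stands at 10.56 and the other 3 brain NSC arrays at 9.50 to 9.56, while labelled iPS spans 10.53 to 10.68.

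Over the 24 probe sets of these genes, brain NSC replicate 4 was the highest brain NSC array in 7, the lowest in 4 and between the others in 13. The second Smo probe set read 10.29 there and 9.28 to 9.56 in the other 3 brain NSC arrays. The second Boc probe set read 6.32 there and 5.59 to 5.70 in the others, and the second Gas1 probe set 11.47 there and 10.70 to 11.10 in the others. It was lowest in the dim Gas1 probe set, with 6.26 against 6.37 to 6.67, and in the brightest Hhip probe set, with 4.57 against 4.78 to 4.99. Of the 190 genes apart on this array, 158 were higher and 32 lower than in the other 3. Among the brightest probe sets of the 9 genes, Dixon's test set this array apart for Smo alone.

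Further Hedgehog genes were read in lists by role, with 92 of 99 entries matched to a gene. The ligands were low in all groups: Shh averaged 6.15, 5.73 and 5.64 in labelled iPS-derived NSC, labelled iPS and brain NSC. Ihh averaged 5.23, 4.92 and 4.98, and Dhh, the ligand known from testis and peripheral nerve, 5.71, 5.02 and 4.86. None of the 3 was called in any comparison. In labelled iPS-derived NSC, Dhh differed by 0.68 ± 0.11 against labelled iPS and 0.85 ± 0.10 against brain NSC (adjusted p = 9.33e-05 and 6.10e-06, limma). Shh differed by 0.42 ± 0.09 and 0.51 ± 0.09 (adjusted p = 0.00146 and 0.000196, limma). Ihh gave 0.31 ± 0.14 and 0.24 ± 0.13 (adjusted p = 0.0724 and 0.117, limma).

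Of 12 measured genes of ligand release and binding, 4 rose and 1 fell in labelled iPS-derived NSC, in both comparisons, against 10.8% higher and 14.4% lower over all genes in the first and 11.3% and 14.0% in the second. Lrp2, an endocytic receptor that takes up Shh in the forebrain, rose by 4.85 ± 0.11 against labelled iPS (adjusted p = 2.49e-13, limma) and by 4.68 ± 0.10 against brain NSC. The glypican Gpc3, a surface proteoglycan that binds Hedgehog, was higher (1.55 and 1.88), while its relative Gpc6 was lower (-2.14 and -2.25). The medians over the list were 0.28 and 0.40.

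Of 23 measured cytoplasmic and ciliary regulators, 6 fell and 1 rose against labelled iPS, and 7 fell and 0 rose against brain NSC. That is 30.4% called in each comparison, near the 25.3% and 25.4% over all genes. Those called lower made up 26.1% and 30.4%, against 14.4% and 14.0% of all genes. Among genes at or above the median level (6.76), 24.6% and 23.4% were called lower, and by array this list averaged 8.80 to 9.42. Gpr161, a ciliary receptor that holds the pathway off through cAMP, fell in both (-2.76 ± 0.11, adjusted p = 4.91e-11, and -3.11 ± 0.10, adjusted p = 6.11e-12, limma). Of 4 listed subunits of protein kinase A, which marks Gli2 and Gli3 for processing, 3 fell in both: Prkacb (-1.70 and -2.45), Prkar1a (-1.77 and -1.70) and Prkaca (-1.43 and -1.20). Prkar2a was not called (-0.02 and -0.05). The kinase Gsk3b, which acts after it, fell (-1.23 and -2.15), while its paralogue Gsk3a gave 0.35 and 0.59 and was not called. Sufu, the inhibitor that binds the Gli factors, was not called (-0.36 ± 0.14 and -0.11 ± 0.13). The list medians were -0.36 and -0.33.

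Of 24 measured genes of the primary cilium and its transport, 8 fell and 2 rose against labelled iPS, and 10 fell and 2 rose against brain NSC. Those called lower made up 33.3% and 41.7% of the list, against 14.4% and 14.0% of all genes. The list averaged 7.74 to 8.39 by array, and 24.6% and 23.4% of genes at or above the median level were called lower. Ift57, of the transport complex that moves outward, fell in both (-2.67 ± 0.11, adjusted p = 1.32e-10, and -2.58 ± 0.11, adjusted p = 7.87e-11, limma). Ttc21b, of the inward complex, fell as well (-1.88 and -2.19). The genes that rose were Ofd1, of the basal body (1.99 ± 0.21 and 2.04 ± 0.20), and Ift46 (1.89 and 1.88). The list medians were -0.46 and -0.76.

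Of 23 measured genes known as Hedgehog targets in one tissue or another, 5 fell and 4 rose against labelled iPS, and 4 fell and 4 rose against brain NSC. Over all genes 14.4% were lower and 10.8% higher in the first comparison, and 14.0% and 11.3% in the second. Ccnd2, a cyclin of the G1 phase, fell in both (-6.67 ± 0.20, adjusted p = 2.62e-12, and -5.75 ± 0.18, adjusted p = 5.04e-12, limma), as did Bcl2, an inhibitor of cell death (-3.25 and -3.77). Bmp4, a secreted growth factor, rose by 2.94 ± 0.13 and 3.02 ± 0.12. The list medians were 0.22 and 0.27, and the means -0.11 and -0.08, so their signs differed. Between labelled iPS and brain NSC, 1 of these genes was called: Cdk6, a kinase of the cell cycle, fell by 2.14 ± 0.15 (adjusted p = 1.21e-06, limma). In that comparison 0 genes of the lists of ligands, ligand release and binding, regulators and cilium were called.

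**Figure D5:**
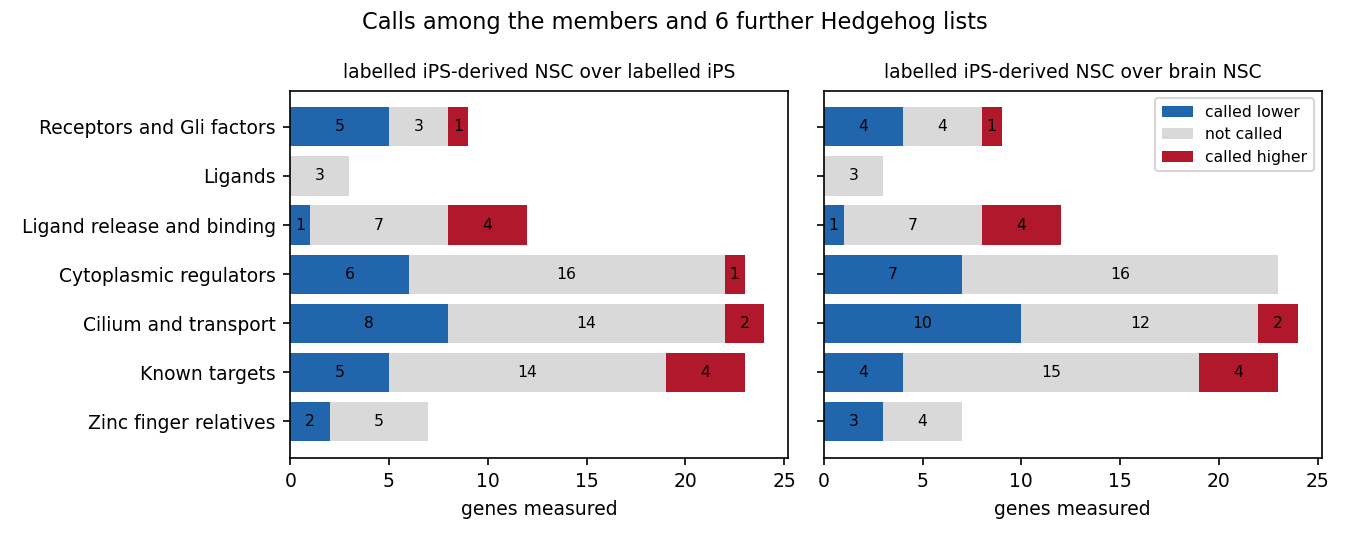
Numbers of genes (x axis) called lower, not called and called higher in the 9 receptors and Gli factors and in 6 further lists, for labelled iPS-derived NSC over labelled iPS and over brain NSC. The regulators show 6 and 7 lower genes and the cilium list 8 and 10, while 0 of the 3 ligands were called.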

How the data were processed

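Total RNA (1 microgram per sample) was labelled with biotin and hybridised to Affymetrix arrays, per the labels' protocols. Log2 expression values, deposited by the authors for every probe set, came from RMA, which the labels and the processing notes of the submitters place in Bioconductor, its release not given in the sources used here. Because this method makes the arrays' distributions alike, it largely removes any difference that most genes share. The deposited distributions still differed somewhat. Their upper quartile was 7.80 to 7.84 in labelled iPS-derived NSC and 8.03 to 8.12 in the other arrays. The lower quartile was 4.37 to 4.41 and 4.22 to 4.28.

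Of 45101 probe sets, 34945 had 1 gene symbol, 932 several and 9160 none in the platform annotation; 64 were controls. For each of 18193 genes the brightest probe set, by mean over all 10 arrays, stood for the gene. The 3 groups were fitted together with limma 3.58.1 in R 4.3.3 (lmFit and eBayes, 7 residual and 5.95 prior degrees of freedom). P values are two-sided, adjusted over all genes. The fit was tested on simulated data with known differences. Figures were drawn with Python 3.11.15 and matplotlib 3.10.9. Alternatives changed the probe set, the dim genes, the normalization, the arrays in the fit, the variance model and the replicate number; the background correction could not be varied. Promoter windows and gene positions are from RefSeq, build GRCm38.p6.

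The 9 genes, the lists and the tests were chosen with earlier results of these data known. Named genes were the 9 genes, all members of a list of 5 or fewer, the 3 called genes with the largest difference per list and comparison, the 2 genes most alike in pattern to each called gene, and markers for the label check. Sufu, Prkaca, Prkar2a, Gsk3a, the other zinc finger relatives, the markers of other cell types and the values of a listed gene in its other comparison were chosen after their values were seen.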

Additional observations from a re-analysis of the deposited data

Results flagged for a closer look

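One value was set apart from its group by Dixon's test. Smo in brain NSC replicate 4 stood at 10.56 on the log2 scale, against 9.50 to 9.56 in the other 3 brain NSC arrays. Its gap to the nearest array took 0.948 of the range of the group, above the critical value of 0.829 for 4 arrays. Chance sets apart about 5% of groups in this test, and 9 genes were tested. The second Smo probe set showed the same array high (10.29).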

How the results depend on the processing

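In labelled iPS-derived NSC against labelled iPS, 6 of the 9 genes were called, and 5 to 6 without any 1 array; against brain NSC, 5 were called in every such setting. The counts over all genes ran from 4574 to 4638 and from 4581 to 4700. In labelled iPS against brain NSC, 0 were called, 0 to 1 without any 1 array, and the count over all genes (335) ran from 298 to 539; it was 223 with the mean of the probe sets and 222 without dim genes. With the replicate block it was 537, with 1 of the 9 genes called (Smo, 1.08), since the block gives brain NSC replicate 4 a level of its own and so removes it. The shared numbers do not pair the arrays: deviations of same-numbered arrays correlated at -0.21 to 0.13, and an array was most like its own number in 5 of 18 checks.

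The sign turned in these cases. In labelled iPS against brain NSC these were Gas1 (-0.085), Ptch1 (0.165), Smo (-0.12), Boc (0.50) and Cdon (-0.24) on another probe set; Boc (0.14) and Cdon (-0.075) with the mean of the probe sets; Gli1 (0.018) and Boc (0.00087) after quantile normalization; Gli1 after median centring (0.013) and with the block (0.014). Without 1 array Ptch1 ran from -0.102 to 0.024, Gli1 from -0.091 to 0.059 and Boc from -0.062 to 0.0028. In labelled iPS-derived NSC against labelled iPS and against brain NSC they were Smo on its dim probe set (0.21 and 0.087) and Boc on the second probe set (-1.43 and -0.94) and with the mean (-0.43 and -0.30). Boc ran from -0.073 to 0.269 and from -0.096 to 0.246 without 1 array. Against brain NSC alone Boc gave -0.024 and Hhip 0.0047 on another probe set, and Hhip ran from -0.093 to 0.062. The cause was not tested. Precision is limited by the 10 arrays, and levels near the lower quartile (4.22 to 4.41) say little about differences.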

Other observations

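Among zinc finger relatives of the Gli factors, 2 of 7 measured genes fell in labelled iPS-derived NSC against labelled iPS and 3 against brain NSC, and 0 rose, where 14.4% and 14.0% of all genes were called lower. Zic1, a factor of the dorsal neural tube and cerebellum, fell by 7.07 ± 0.18 (adjusted p = 6.36e-13, limma) and by 7.18 ± 0.17 (adjusted p = 2.37e-13), and was under the lower quartile of the probe sets in labelled iPS-derived NSC. Glis3 fell by 2.65 ± 0.18 and 3.89 ± 0.17, and Zic2 by 1.07 ± 0.12 against brain NSC. Zic4 (-0.24 and -0.11), Zic5 (-0.97 and -0.82), Glis1 (-0.06 and 0.04) and Glis2 (0.39 and 0.45) were not called in either comparison. Glis3 was also lower in labelled iPS than in brain NSC, by 1.25 ± 0.17 (adjusted p = 0.000258, limma), the 1 called gene of this list there.

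The genes most like each called gene in pattern were found by the root mean square difference over the 10 arrays, after each gene was centred on its own mean. The nearest to Gas1 was Cdh2, the neural cadherin, at 0.103 log2 units, and Zfp521, a zinc finger factor, at 0.130. Smo was nearest to Rhbdf1 (0.0896), which also averaged 7.54, 10.42 and 9.63 in labelled iPS-derived NSC, labelled iPS and brain NSC, and then to Trp53i11 (0.144). Ptch1 was nearest to Lrch3 (0.0787), Cdon to Serinc1 (0.0632) and Gli3 to Prdm15 (0.0682). Gli2 was nearest to Aprt, an enzyme of purine salvage (0.110), and Sfmbt2, a Polycomb relative (0.125). These are descriptions of 10 arrays in 3 groups.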
